A study of Mus musculus with 12 samples.

Results

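The CITED genes Cited1, Cited2 and Cited4 were measured in primary mouse embryonic fibroblasts (MEFs) that had or lacked the coactivators CBP and p300, with and without activation of hypoxia-inducible factor (HIF). The genes were chosen by symbol, every probe set annotated with that symbol alone was kept, and they gave 3 of 17097 genes and 4 of 28898 probe sets with exactly 1 gene symbol. Cited1 and Cited4 had 1 probe set each and Cited2 had 2. The study asked how MEFs lacking CBP and p300 respond to dipyridyl (DP), an iron chelator that blocks the iron-dependent hydroxylases which mark HIF for destruction. The 4 groups were wild-type cells in ethanol (the vehicle), wild-type cells in DP, dKO cells in ethanol and dKO cells in DP, where dKO stands for cells homozygous for conditional alleles of both coactivator genes after Cre. All cells, the wild type included, were exposed for 16 h to adenovirus that expresses Cre recombinase, at an MOI (virus per cell) of 100. They came from C57Bl/6 x 129Sv F1 embryos at e14.5, were used at passage 4, and were kept at 3% oxygen for 48 h and in normoxia for 24 h before 3 h in 100 µM DP or ethanol. Each group held 3 arrays from separate MEF lines, numbered 3, 4 and 5 in the wild type and 1, 5 and 6 in the dKO, and each line gave 1 array per treatment. The sources used here do not give whether a line is 1 embryo or how complete the recombination was in each, so p-values measure the spread between these lines.

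CITED proteins carry a conserved acidic region at the carboxyl end that binds the CH1 domain of CBP and p300, also called TAZ1. The same CH1 surface takes up the carboxyl-terminal activation domain of HIF-1α, and CITED2 can displace HIF-1α from it. Cited2 is itself known as a gene induced by low oxygen, so that it is described as a negative feedback on HIF. CITED proteins also act as coactivators, since they bring CBP and p300 to DNA-binding factors such as TFAP2, LHX2, SMAD and PPAR proteins. Cited1 is best known from melanocytes, the placenta and nephron progenitors, and Cited4 from the heart and the mammary gland.

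In GRCm38.p6 Cited2 lies at chr10:17723228-17725674, Cited4 at chr4:120666563-120667820 and Cited1 on the X chromosome at chrX:102247378-102252181. All 3 matched the RefSeq promoter table of that build, with 1 annotated start for Cited2, 1 for Cited4 and 3 for Cited1. The 250 bases before a start are shown because DP acts on HIF, whose DNA element has the core ACGTG or GCGTG. Capitals mark each such core on either strand, where the core of the other strand reads CACGT or CACGC. The Cited2 window is chr10:17722978-17723227 (plus strand), the Cited4 window chr4:120666313-120666562 (plus strand) and the window of the start of Cited1 farthest upstream chrX:102252182-102252431 (minus strand).
Cited2: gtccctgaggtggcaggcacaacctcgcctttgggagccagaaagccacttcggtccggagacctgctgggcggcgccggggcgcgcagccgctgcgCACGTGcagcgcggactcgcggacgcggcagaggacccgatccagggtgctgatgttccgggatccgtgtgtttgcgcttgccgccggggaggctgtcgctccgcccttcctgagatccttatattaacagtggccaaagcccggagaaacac
Cited4: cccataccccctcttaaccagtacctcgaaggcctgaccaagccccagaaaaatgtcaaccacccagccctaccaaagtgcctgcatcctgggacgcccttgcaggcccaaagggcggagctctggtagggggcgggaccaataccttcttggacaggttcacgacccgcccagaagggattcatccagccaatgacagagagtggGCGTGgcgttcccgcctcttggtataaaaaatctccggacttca
Cited1: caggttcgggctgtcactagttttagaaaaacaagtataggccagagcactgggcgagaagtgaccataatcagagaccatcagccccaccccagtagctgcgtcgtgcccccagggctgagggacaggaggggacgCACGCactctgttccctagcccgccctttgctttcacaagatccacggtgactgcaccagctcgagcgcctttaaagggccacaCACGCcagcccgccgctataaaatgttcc

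The Cited2 window held ACGTG on both strands, overlapping as CACGTG, which began 153 bases before the start. Cited4 held GCGTG 44 bases before its start, and the printed Cited1 window held GCGTG on the opposite strand 113 and 29 bases before the start. Of the other Cited1 windows, chrX:102251844-102252093 held ACGTG 108 bases before the start and chrX:102250777-102251026 held neither core. Among 32851 such windows of all genes, 38.6% held either core on either strand, 16.6% ACGTG and 28.2% GCGTG. The full cyclic AMP response element TGACGTCA, which CREB binds before it recruits CBP, was in none of the 5 CITED windows and in 1.55% of all windows. These matches describe the letters of the windows, and no binding was measured.

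Values are log2 RMA levels, and a change is a difference of log2 levels. Array medians lay between 3.87 and 3.98, and the 95th percentile of 17 blank probe sets lay between 3.28 and 3.54. In ethanol, line 5 of the wild type and line 1 of the dKO stood apart, with mean correlations of 0.990 and 0.989 to the other arrays of their groups, and the CITED results that change without them are given so below. The beta-actin 3′ signal exceeded the 5′ signal, a measure of RNA degradation, by 0.23 to 0.25 on the wild-type arrays in ethanol and 0.28 to 0.38 in DP. On the dKO arrays it did so by 0.40 to 0.45 in ethanol and 0.48 to 0.60 in DP. For Gapdh the same difference was -0.03 to 0.15 in ethanol and 0.04 to 0.17 in DP on wild-type arrays. On dKO arrays it was 0.19 to 0.21 and 0.10 to 0.19, so under DP the Gapdh difference overlapped between the genotypes. Xist, the RNA of the inactive X chromosome, spanned 10.28 to 10.75 on wild-type arrays and 3.94 to 5.32 on dKO arrays, and the Y-linked gene Eif2s3y 2.49 to 3.29 and 7.08 to 8.93. The wild-type lines thus read as female and the dKO lines as male, so sex goes with genotype in every genotype comparison. All 16 probe sets of 13 fibroblast marker genes were lower in dKO in both treatments, with a summed level of 15.18 to 15.27 in the wild-type and 13.72 to 14.08 in the dKO arrays. In dKO, 12 of these 13 markers had means above the blank level. Of the markers of other cell types, 5 of 7 epithelial, 2 of 5 macrophage, 2 of 6 skeletal muscle and 1 of 8 neural probe sets were lower in dKO in ethanol, and 4, 3, 2 and 3 under DP, while 1 epithelial and 1 macrophage probe set were higher in each. Of 6 endothelial probe sets none was called in ethanol and 1, of Kdr, was lower under DP. Over all probe sets 29.6% were called between genotypes in ethanol and 31.9% under DP. The epithelial summed level was 8.43 to 8.58 in ethanol and 9.37 to 9.61 in DP in wild-type cells and 7.11 to 7.40 and 8.03 to 8.28 in dKO cells, and Krt19 was the epithelial marker that rose with DP in both genotypes. The CBP gene Crebbp was lower in dKO cells by -0.85 ± 0.16 in ethanol and -0.76 ± 0.16 in DP (SE of the change, n = 3 arrays per group throughout, adjusted p = 0.00121 and 0.0026 in limma). With the beta-actin covariate Crebbp was -0.96 and -0.87 and did not pass (adjusted p = 0.172 and 0.254). The sources used here do not place its probe set relative to the deleted exons. Genotype therefore cannot be told apart here from sex, the lower fibroblast marker level and the beta-actin difference that go with it. In these bulk samples fewer cells of a type and less RNA per cell cannot be told apart.

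Cited2 was well above the blank probe sets on all 12 arrays, and on 1 of its 2 probe sets its RNA was higher in dKO than in wild-type cells under DP. Its brighter probe set, 1452207_PM_at, differed by 0.66 ± 0.16 in log2, a fold of 1.58. Such a call was common, as 31.9% of all probe sets were called in this comparison. The call of 1452207_PM_at was lost once the limma fit allowed for the beta-actin signal difference, at 0.35 ± 0.37 (adjusted p = 0.727). In ethanol the same probe set differed by 0.41 ± 0.16, which did not pass. DP by itself did not change Cited2 past the test in either genotype.

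On the Cited2 probe set 1452207_PM_at the wild-type ethanol arrays of lines 3, 4 and 5 read 10.03, 9.96 and 9.98, and the DP arrays of the same lines 10.36, 10.20 and 9.83. The dKO lines 1, 5 and 6 read 10.58, 10.09 and 10.53 in ethanol and 10.86, 10.54 and 10.98 in DP. All 3 dKO arrays lay above all 3 wild-type arrays of the same treatment, in ethanol, where the probe set was not called, and in DP. The share of all probe sets whose arrays separate in this way was not counted, here or for separations given below. By limma 29.6% of all probe sets were called between genotypes in ethanol and 31.9% under DP. Line 5 was the lowest of the dKO lines in both treatments, and in ethanol it stood only slightly above the wild type. The wild-type means were 9.99 ± 0.04 in ethanol and 10.13 ± 0.27 in DP, followed by the dKO means of 10.40 ± 0.27 and 10.79 ± 0.23 (SD, n = 3), and neighbours in this order overlapped at every step.

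On the dimmer Cited2 probe set, 1421267_PM_a_at, the wild-type lines 3, 4 and 5 read 6.35, 6.17 and 6.22 in ethanol and 6.34, 6.36 and 6.12 in DP. The dKO lines 1, 5 and 6 read 6.68, 6.00 and 6.51 in ethanol and 6.85, 6.42 and 7.07 in DP. Under DP the dKO arrays again lay above the wild type, whereas in ethanol dKO line 5 fell below all 3 wild-type arrays. The group means stood in the same order as on the brighter probe set, at 6.25 ± 0.09, 6.27 ± 0.13, 6.40 ± 0.35 and 6.78 ± 0.33 (SD, n = 3). Across the 12 arrays the levels of both Cited2 probe sets correlated at r = 0.919, and their deviations from the group means at r = 0.903, a description of signals that share each array's RNA and normalization.

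**Figure D1:**
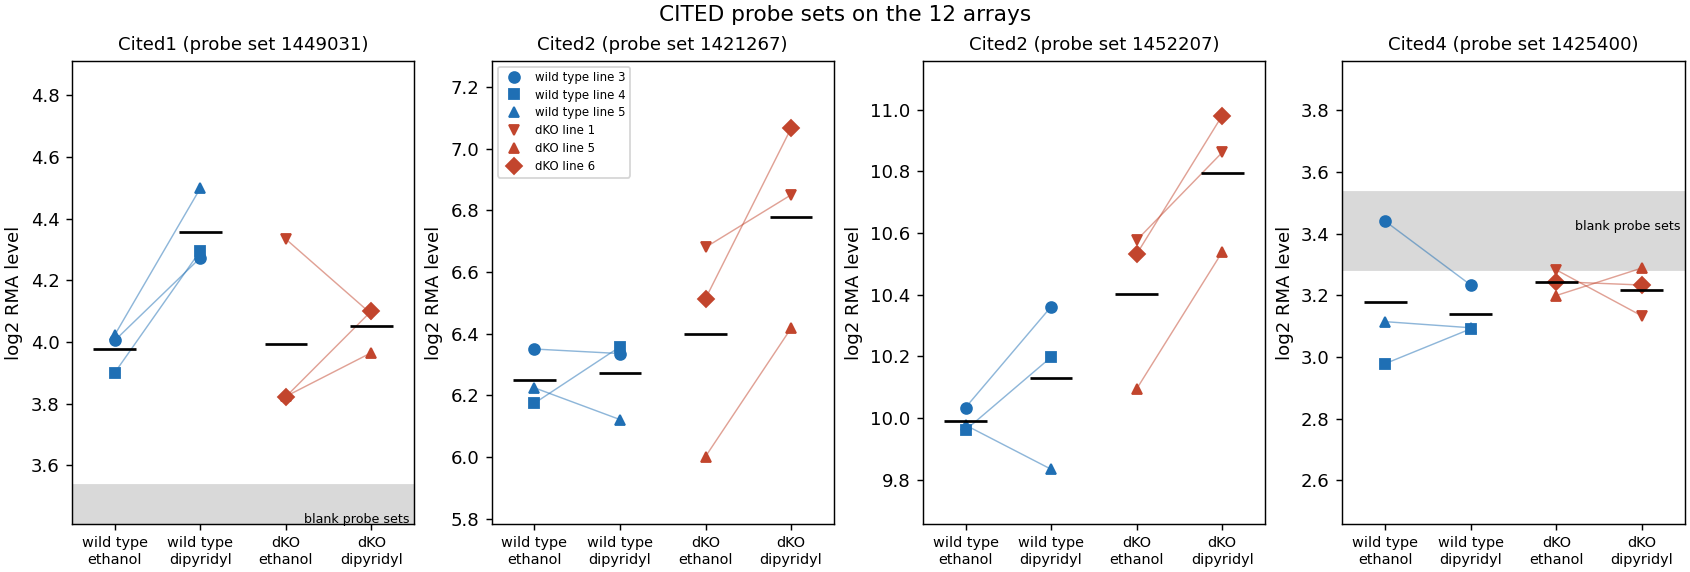
Log2 RMA levels of the 4 CITED probe sets (vertical axis, the same span in each panel) on the 12 arrays by group (horizontal axis); symbols are MEF lines, thin lines join the arrays of a line, black bars are group means and the grey band is the range of the 95th percentile of blank probe sets. Under DP the dKO arrays of Cited2 lie above the wild-type arrays on both probe sets, Cited1 is highest in wild-type DP at 4.27 to 4.50, and Cited4 lies at the blank level.

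The genotype comparison under DP called 1 of the 4 CITED probe sets, where 31.9% of all probe sets were called. That was Cited2 on 1452207_PM_at, with a 95% interval of the change from 0.31 to 1.02 and an adjusted p of 0.00747. Its change was larger in size than that of 81.93% of all probe sets in this comparison. The other Cited2 probe set differed by 0.51 ± 0.18, with an adjusted p of 0.0514, which is just short of the threshold of 0.05, and with the MEF line as a replicate block its adjusted p was 0.046. Without the 2 ethanol arrays that stood apart, the values of both Cited2 probe sets stayed at 0.66 and 0.51, as those arrays are not in this contrast, and their adjusted p-values were 0.00609 and 0.0333. When the beta-actin difference was added as a covariate, the difference on 1452207_PM_at was 0.35 ± 0.37, with an adjusted p of 0.727, and that on 1421267_PM_a_at was 0.16. The beta-actin difference did not overlap between the genotypes within a treatment, so genotype and this covariate cannot be fully told apart in that fit. The Gapdh difference, which overlapped under DP, was not used as a covariate.

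In ethanol none of the 4 CITED probe sets was called, against 29.6% of all probe sets, and 1 had an unadjusted p under 0.05. That was Cited2 on 1452207_PM_at, at 0.41 ± 0.16 with a 95% interval from 0.05 to 0.77 and an adjusted p of 0.0813. Without the ethanol array of dKO line 5 it was 0.56 and passed, with an adjusted p of 0.0215, and without the 2 ethanol arrays that stood apart it was 0.32 with an adjusted p of 0.264. The dimmer probe set differed by 0.15 ± 0.18 (adjusted p = 0.608), and -0.0048 without those 2 arrays.

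DP against ethanol called 0 of 4 CITED probe sets in wild-type cells, where 3.71% of all probe sets were called, and 0 of 4 in dKO cells, where 1.14% were called. In each genotype 1 CITED probe set had an unadjusted p under 0.05. In wild-type cells Cited2 changed by 0.14 ± 0.16 on 1452207_PM_at (adjusted p = 0.797) and by 0.02 ± 0.18 on 1421267_PM_a_at. The lines did not move together, with 0.33 and 0.24 in lines 3 and 4 and -0.14 in line 5 on 1452207_PM_at. In dKO cells the changes were 0.39 ± 0.16 (adjusted p = 0.342) and 0.38 ± 0.18 (adjusted p = 0.400), and all 3 lines were higher in DP on both probe sets, by 0.28, 0.44 and 0.45 in lines 1, 5 and 6 on 1452207_PM_at and by 0.17, 0.42 and 0.55 on 1421267_PM_a_at. Leaving out single arrays gave 0.24 to 0.52 and 0.18 to 0.56, the beta-actin covariate gave 0.22 and 0.19, and without the 2 ethanol arrays that stood apart the values were 0.48 and 0.52, none of which passed. These SEs do not use the pairing by line. With the MEF line as a replicate block the dKO changes of 0.39 and 0.38 had SEs of 0.12 and 0.11. They did not pass there either (adjusted p = 0.185 and 0.186).

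The difference between the DP effects of the genotypes was 0.25 ± 0.23 on 1452207_PM_at, with a 95% interval from -0.25 to 0.76, and 0.36 ± 0.26 on 1421267_PM_a_at, with an interval from -0.20 to 0.92. None of the 4 CITED probe sets was called in this comparison, where 0.401% of all probe sets were called, and none had an unadjusted p under 0.05. Without the 2 ethanol arrays that stood apart the differences were 0.35 and 0.51 (adjusted p = 0.781 and 0.658). A larger response of Cited2 to DP in dKO cells was therefore not shown, and the intervals do not exclude one. The 5 comparisons share arrays, as each ethanol or DP group enters more than 1 of them.

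**Figure D2:**
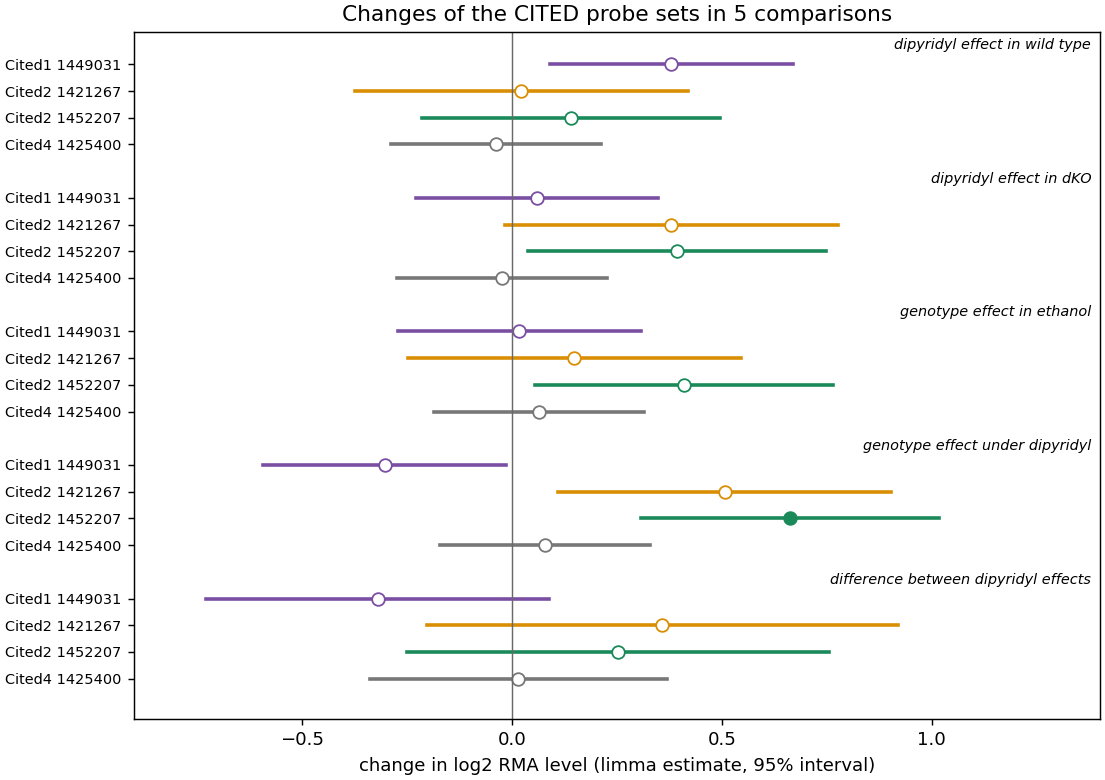
Changes of the 4 CITED probe sets (log2, horizontal axis; dots are limma estimates, bars 95% intervals) in 5 comparisons; filled dots passed an adjusted p of 0.05. The 1 filled dot is Cited2 1452207 in the genotype comparison under DP, at 0.66.

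**Figure D3:**
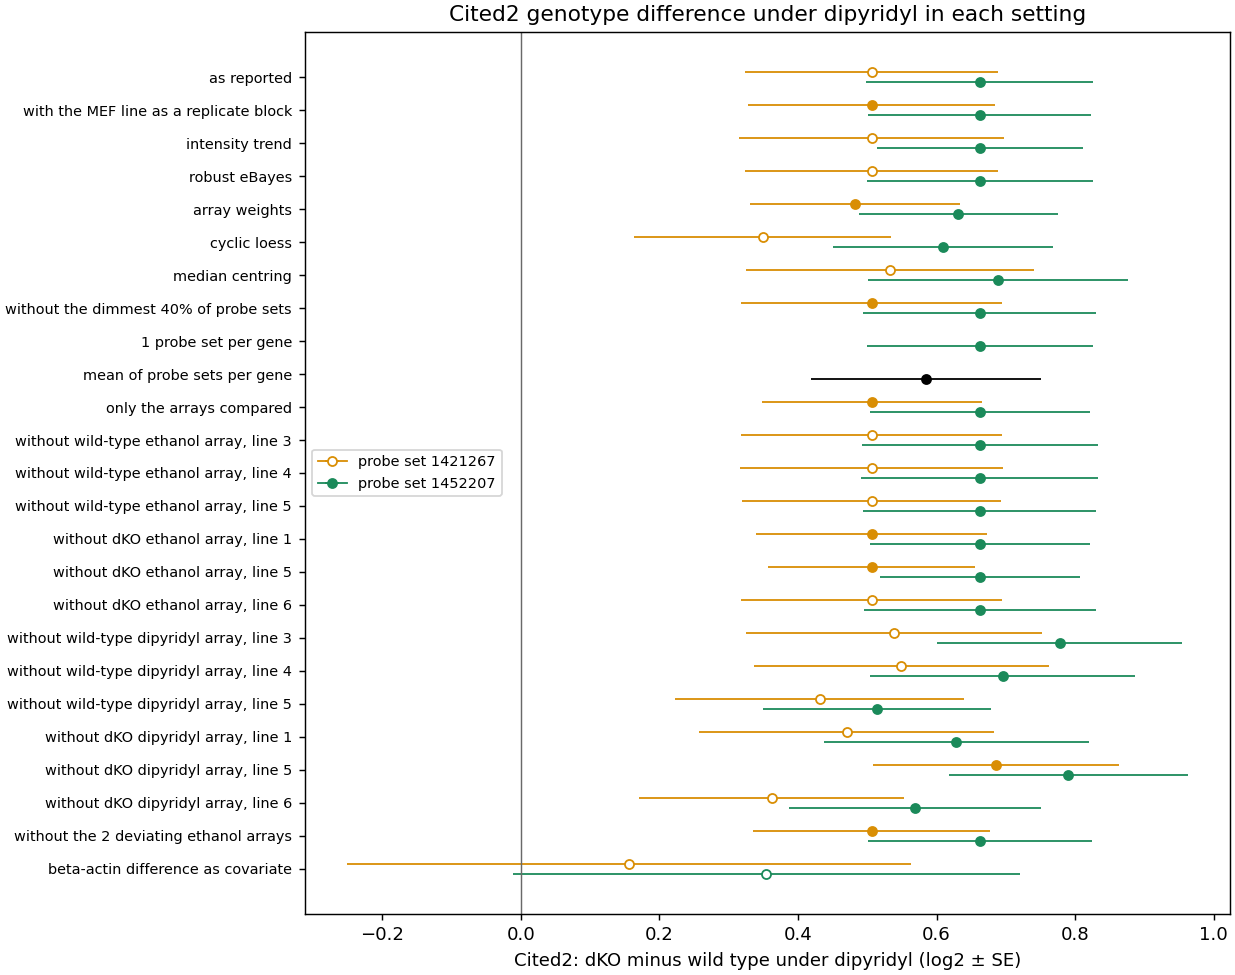
Difference of Cited2 between dKO and wild type under DP (log2 ± SE, horizontal axis) as reported and under each alternative setting (vertical axis) for both probe sets, with the mean of both in black; filled dots passed an adjusted p of 0.05. Probe set 1452207 stays filled in every setting except that with the beta-actin covariate, where it is 0.35, and probe set 1421267 passes in some settings and not in others, at sizes of 0.16 to 0.69.

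Cited1 lay just above the blank probe sets on all 12 arrays, which limits how well its changes are measured. The wild-type lines 3, 4 and 5 read 4.00, 3.90 and 4.02 in ethanol and 4.27, 4.30 and 4.50 in DP. The dKO lines 1, 5 and 6 read 4.33, 3.82 and 3.82 in ethanol and 4.09, 3.97 and 4.10 in DP. Every wild-type DP array was above every wild-type ethanol array and every dKO DP array, and in dKO ethanol line 1, an array that stood apart from its group, was the high value. Neither of these 2 comparisons passed for Cited1 (adjusted p = 0.195 and 0.105 in limma), and the share of all probe sets that separate in this way was not counted. The wild-type means were 3.98 ± 0.07 in ethanol and 4.36 ± 0.12 in DP, the highest of the groups, and the dKO means 3.99 ± 0.29 and 4.05 ± 0.08 (SD, n = 3). The 3 lower groups overlapped, and dKO line 1 in ethanol also reached into the range of wild-type DP.

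DP changed Cited1 by 0.38 ± 0.13 in wild-type cells (95% interval 0.09 to 0.67, adjusted p = 0.195) and by 0.06 ± 0.13 in dKO cells (adjusted p = 0.881). The 3 wild-type lines were higher in DP by 0.27, 0.39 and 0.48, while the dKO lines 1, 5 and 6 gave -0.24, 0.14 and 0.28. The genotypes differed by 0.02 ± 0.13 in ethanol and by -0.30 ± 0.13 under DP (adjusted p = 0.105), and the difference between the DP effects was -0.32 ± 0.19 (adjusted p = 0.944). Without the ethanol array of dKO line 1 the change with DP in dKO cells was 0.23 and the difference between the DP effects -0.15, and without both ethanol arrays that stood apart they were 0.23 and -0.17, and neither passed. Without the ethanol array of dKO line 1 the change with DP in wild-type cells kept its size of 0.38 and passed, with an adjusted p of 0.0384, and the genotype difference under DP of -0.30 passed with 0.0234. Without both ethanol arrays that stood apart the same values were 0.40 (adjusted p = 0.0412) and -0.30 (adjusted p = 0.0159), and the genotype difference in ethanol was -0.13. Cited1 is X-linked and the genotypes differ in Xist by -5.92 ± 0.28 in ethanol and -6.17 ± 0.28 in DP, and the part of that difference in the Cited1 values was not tested. Of 5 melanocyte marker genes on 9 probe sets none passed in any comparison except 1 probe set, of Dct, that was lower in dKO under DP. Their summed level was 6.90 to 7.39 in wild-type ethanol, 7.34 to 7.47 in wild-type DP, 6.94 to 7.31 in dKO ethanol and 7.24 to 7.34 in dKO DP, and 2 of the 5 had means above the blank level, while the pigment enzyme genes Tyr and Tyrp1 did not. Of 5 probe sets of 3 measured nephron progenitor marker genes, 1 fell with DP in each genotype, that of Osr1, by -0.95 ± 0.15 in wild-type and -0.92 ± 0.15 in dKO cells, and 2, of Osr1 and Eya1, were lower in dKO in both treatments. Their summed level was 8.43 to 8.66 in wild-type ethanol, 7.81 to 7.83 in wild-type DP, 7.04 to 7.11 in dKO ethanol and 6.27 to 6.89 in dKO DP. The part of these levels in the Cited1 values was not tested. Over all probe sets 3.71% and 1.14% were called with DP in wild-type and dKO cells, and 29.6% and 31.9% between genotypes in ethanol and DP.

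Cited4 was not separable from the blank probe sets. The wild-type lines 3, 4 and 5 read 3.44, 2.98 and 3.11 in ethanol and 3.23, 3.09 and 3.09 in DP. The dKO lines 1, 5 and 6 read 3.28, 3.20 and 3.24 in ethanol and 3.13, 3.29 and 3.23 in DP. Only the ethanol array of wild-type line 3 was above the 95th percentile of the blank probe sets of its own array. The 4 groups overlapped, the changes lay between -0.04 and 0.08 in all 5 comparisons, and no fold is given.

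By a rule of the highest Pearson correlation over the 12 arrays, the genes most like Cited2 on 1452207_PM_at were Dusp1 (r = 0.932), which encodes a phosphatase that inactivates MAP kinases, Mllt11 (r = 0.904) and BC031361 (r = 0.894). The group means of BC031361 lay between 3.59 and 4.09, near the blank level. Dusp1 had wild-type means of 9.99 in ethanol and 10.25 in DP and dKO means of 10.67 and 10.81, the order that Cited2 took. For 1421267_PM_a_at the 3 most alike were Rnf180, E130304I02Rik and Ddx4 (r = 0.880, 0.877 and 0.863), with group means between 2.83 and 3.44, at the blank level. For Cited1 they were Pik3ap1 (r = 0.969), also near the blank level, Zfp46 (r = 0.927) and Fbxo21 (r = 0.907), which encodes an F-box protein and had wild-type means of 7.87 in ethanol and 8.60 in DP and dKO means of 8.02 and 8.20. These correlations describe arrays that share normalization and RNA quality, and were taken as the highest among all genes.

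Other proteins bind CH1 besides the CITED family, and 7 genes of a list of 8 such partners were measured on 16 probe sets. With DP in wild-type cells 4 of the 16 rose, all of Ets1 and Foxo3, and none fell, beside 3.71% of all probe sets called. The median change was 0.32 against -0.02 over all probe sets. In dKO cells 2 rose, both of Foxo3, and none fell, beside 1.14% of all probe sets called, with a median of 0.10 against -0.03. Foxo3, a stress-responsive forkhead factor, rose by 1.05 ± 0.09 (adjusted p = 7.87e-06) in wild-type and by 0.85 ± 0.09 (adjusted p = 0.000132) in dKO cells. Ets1, an ETS-family factor, rose by 0.92 ± 0.13 (adjusted p = 0.00115) in wild-type cells and changed by 0.27 ± 0.13 in dKO cells (adjusted p = 0.401), a difference of -0.64 ± 0.19 that did not pass (adjusted p = 0.377). Not every probe set of these genes passed in wild-type cells, as another 2 of the 4 for Ets1 gave 0.34 and 0.29 (adjusted p = 0.463 and 0.244) and 1 of the 3 for Foxo3 gave 0.34 (adjusted p = 0.174). In those same comparisons Cited2 gave 0.14 and 0.39.

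Between the genotypes the CH1 partners went both ways. In ethanol 3 of 16 probe sets were higher and 5 lower in dKO, and under DP 2 were higher and 5 lower, beside 29.6% and 31.9% of all probe sets called, with medians of 0.11 and -0.06 against 0.00 over all probe sets. Hif1a, which encodes the HIF subunit that CITED2 displaces, was lower in dKO by -0.70 ± 0.17 in ethanol (adjusted p = 0.00597) and -0.999 ± 0.17 under DP (adjusted p = 0.000483). Its levels spanned 10.55 to 11.10 on wild-type arrays and 9.67 to 10.39 on dKO arrays, without overlap, but its other probe set, 1431981_PM_at, differed by 0.02 and 0.09 and did not pass. Epas1, which encodes HIF-2α, was higher by 1.24 ± 0.17 in ethanol (adjusted p = 0.000102) and 1.14 ± 0.17 under DP (adjusted p = 0.000192), while its other probe set, 1449888_PM_at, differed by -0.04 in each. Ets1 was lower by -0.87 ± 0.13 and -1.52 ± 0.13, and Rela, the NF-kB subunit gene, higher by 0.55 ± 0.12 and 0.63 ± 0.12. No call remained for Hif1a, Epas1 and Rela with the beta-actin covariate, with adjusted p-values from 0.0532 to 0.417, although the values were -0.82 and -1.12 for Hif1a, 1.43 and 1.34 for Epas1 and 0.47 and 0.55 for Rela in ethanol and DP. The ethanol call of Ets1 was lost too, at -0.55 (adjusted p = 0.351). Stat2 and Mdm2, also of this list, passed in none of the 5 comparisons.

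**Figure D4:**
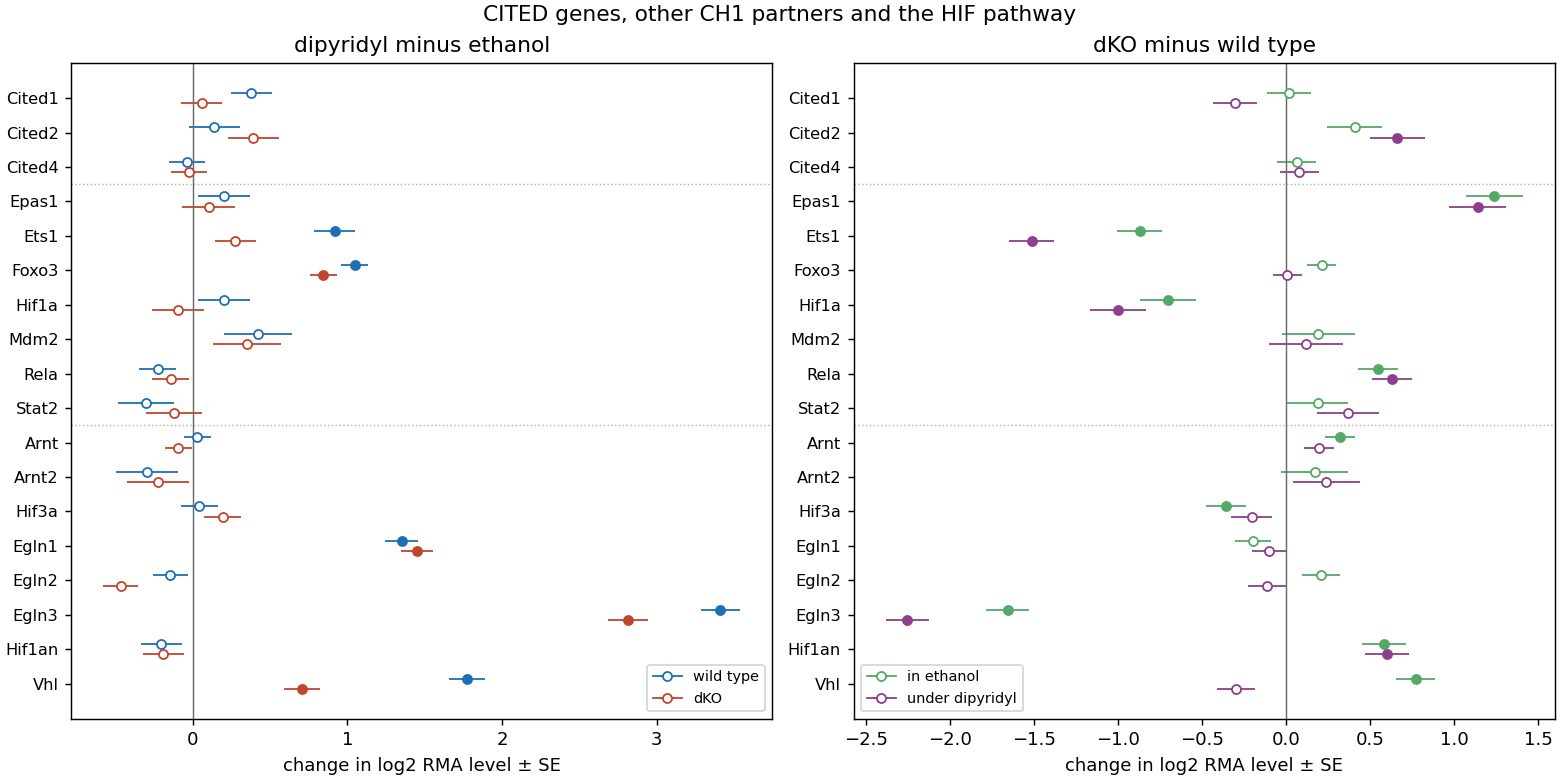
Changes with DP (left) and between genotypes (right), in log2 ± SE (horizontal axis), of the CITED genes, 7 other CH1 partners and the HIF pathway (vertical axis, 1 probe set per gene, that of highest mean); filled dots passed an adjusted p of 0.05. Cited2 at 0.66 under DP is the filled CITED dot, Hif1a lies to the left at -0.70 and -0.999 and Epas1 to the right at 1.24 and 1.14.

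HIF subunits and the enzymes that control them were taken as a list of 10 genes on 25 probe sets. DP raised 6 of the 25 in each genotype and lowered none, beside 3.71% (wild type) and 1.14% (dKO) of all probe sets called. These were probe sets of Egln1 and Egln3, which encode HIF prolyl hydroxylases, and of Vhl, which encodes the ubiquitin ligase subunit that recognises hydroxylated HIF. Egln1 rose by 1.35 ± 0.11 in wild-type and 1.45 ± 0.11 in dKO cells, and Egln3 by 3.41 ± 0.13 and 2.82 ± 0.13. Like Cited2, these genes limit HIF, and set beside them the Cited2 changes of 0.14 and 0.39 are small. They were, however, picked for comparison because they passed with DP. Hif1an, a HIF limiter of the same list described below, was not called with DP in either genotype. Its mean was lower in DP than in ethanol in both, so the Cited2 changes are not small beside every HIF limiter listed. Between the genotypes 5 probe sets were higher and 5 lower in ethanol, where 29.6% of all probe sets were called, and 3 were higher and 5 lower under DP, a share near the 31.9% of all probe sets. Hif1an, which encodes the hydroxylase that blocks the binding of HIF to CH1, was higher in dKO by 0.59 ± 0.13 in ethanol (adjusted p = 0.00427) and 0.60 ± 0.13 under DP (adjusted p = 0.00353), calls that ended with the beta-actin covariate, where the values were 0.60 and 0.62 (highest adjusted p = 0.349). With the mean of all Hif1an probe sets the ethanol difference was 0.22 and did not pass (adjusted p = 0.0826).

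Of 17 probe sets of 12 classic HIF target genes, DP raised 14 in wild-type and 16 in dKO cells and lowered none. Over all probe sets 3.71% and 1.14% were called, and the median changes of the 17 were 1.82 and 2.07. Vegfa, the angiogenic growth factor gene, rose by 2.03 ± 0.12 and 2.67 ± 0.12, and Ankrd37 by 4.86 ± 0.11 and 4.20 ± 0.11. The upper ends of the 95% intervals of the Cited2 changes on 1452207_PM_at were 0.50 in wild-type and 0.75 in dKO cells, both under those medians. Ldha and Pgk1 of this list were not called in wild-type cells, with means of 12.04 and 11.94 in ethanol and 12.28 and 12.255 in DP. Car9 was not called in dKO cells, with means of 4.15 in ethanol and 4.33 in DP. Neither upper end was therefore under the change of every listed target. In dKO cells, where Cited2 on 1452207_PM_at gave 0.41 and 0.66, 15 of the 17 probe sets were lower in ethanol and 10 under DP. None was higher, and 29.6% and 31.9% of all probe sets were called in these comparisons. Vegfa for example differed by -1.49 ± 0.12 in ethanol and -0.86 ± 0.12 under DP, the second of which did not pass with the beta-actin covariate (-0.59, adjusted p = 0.282). Bhlhe40, a transcriptional repressor gene of the same list, differed by -1.73 ± 0.12 and -1.21 ± 0.12. The covariate also ended the ethanol calls of Adm, Ankrd37, Ldha and Pgk1 (adjusted p = 0.681, 0.395, 0.212 and 0.591). It ended the genotype call of Car9 under DP as well (adjusted p = 0.126). Both calls of Bhlhe40, the ethanol calls of Vegfa and Bnip3 and the calls of Adm and Ankrd37 under DP held. In ethanol Pgk1 lost its call in 10 of 24 alternative settings.

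The factors that CITED proteins are known to coactivate were taken as 12 genes on 24 probe sets. None passed with DP in limma, beside 3.71% (wild type) and 1.14% (dKO) of all probe sets called. In wild-type cells 2 and in dKO cells 1 had an unadjusted p under 0.05. In ethanol 2 probe sets were higher and 3 lower in dKO, and under DP none was higher and 3 were lower, smaller shares than the 29.6% and 31.9% of all probe sets called in these comparisons. Smad3, a signal transducer of TGF-β, was lower by -0.95 ± 0.09 (adjusted p = 7.05e-06) in ethanol and -1.07 ± 0.09 (adjusted p = 2.68e-06) under DP. Pparg, the adipogenic nuclear receptor gene, was lower by -0.49 ± 0.15 and -0.53 ± 0.15. Its dKO arrays read 3.33 to 3.86 in ethanol and 3.54 to 3.97 in DP, near the level of the blank probe sets. The Pparg calls were lost in ethanol without wild-type line 4 or dKO line 5 or 6 (adjusted p = 0.114, 0.0812 and 0.13), under DP without wild-type line 4 or dKO line 6 (adjusted p = 0.0633 and 0.0804), and with the beta-actin covariate, where both values turned positive. Smad2 was lower in ethanol by -0.32 ± 0.09 (adjusted p = 0.0183) and Ppara higher by 0.52 ± 0.16 (adjusted p = 0.0249), from a level at that of the blank probe sets. Both lost their call in ethanol without wild-type line 4 (adjusted p = 0.0611 and 0.0943) or dKO line 5 (0.0595 and 0.107), Smad2 without wild-type line 3 (0.0742) and Ppara without dKO line 6 (0.108). With the mean of the probe sets per gene Smad2 was 0.03 and Ppara 0.19, and neither passed (adjusted p = 0.891 and 0.129). Without the 2 ethanol arrays that stood apart, 2 of the 24 fell with DP in wild-type cells and 1 in dKO cells, and under DP 1 was higher and 4 were lower in dKO.

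Among CBP and its partner coactivators, 8 genes on 20 probe sets, 7 probe sets were higher and 2 lower in dKO in ethanol, and 8 were higher and 3 lower under DP. Over all probe sets 29.6% and 31.9% were called in these comparisons. Crebbp was among the lower genes in both treatments, and Ncoa3 had probe sets in both directions under DP. Kat2b, the acetyltransferase PCAF, was higher by 1.65 ± 0.15 and 1.79 ± 0.15, and Ncoa1, a nuclear receptor coactivator gene, by 1.61 ± 0.13 and 1.71 ± 0.13. Carm1, an arginine methyltransferase gene that works with CBP, was lower by -0.77 ± 0.14 and -0.78 ± 0.14, calls lost with the beta-actin covariate, where the values were -0.92 and -0.93 (adjusted p = 0.112 and 0.129). None of the 20 passed with DP in wild-type cells and 1 fell in dKO cells, beside 3.71% and 1.14% of all probe sets called.

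Cited2 is known to sustain growth of MEFs through the Polycomb genes Bmi1 and Pcgf2, which hold down Cdkn2a, the gene for the senescence proteins p16 and p19. Of 5 probe sets of these 3 genes none passed with DP, beside 3.71% of all probe sets called in wild-type and 1.14% in dKO cells. In each treatment 2 were higher and 1 lower in dKO, beside 29.6% of all probe sets called in ethanol and 31.9% under DP. Bmi1 was higher by 0.82 ± 0.28 in ethanol (adjusted p = 0.0442) and 1.02 ± 0.28 under DP (adjusted p = 0.0148), of which the first lost its call in 14 of 24 alternative settings (adjusted p = 0.0522 to 0.767, the smallest change being 0.49 without wild-type line 5 in ethanol) and the second without wild-type line 4 in DP (0.95, adjusted p = 0.0546) and with the beta-actin covariate. The other Bmi1 probe set, 1448733_PM_at, was higher by 1.33 ± 0.27 in ethanol (adjusted p = 0.00196) and 1.65 ± 0.27 under DP (adjusted p = 0.000401). The levels on 1417493_PM_at, the probe set given first, were 8.08 ± 0.59 in ethanol and 8.35 ± 0.14 in DP in wild-type cells and 8.90 ± 0.57 and 9.37 ± 0.08 in dKO cells (SD, n = 3). Cdkn2a was lower by -1.47 ± 0.28 (adjusted p = 0.00136) and -1.13 ± 0.28 (adjusted p = 0.00746), from 8.21 to 6.74 in ethanol and from 7.87 to 6.74 in DP. The calls of Cdkn2a and of Bmi1 on 1417493_PM_at did not hold with the beta-actin covariate, which turned the Cdkn2a difference under DP to the opposite sign. Pcgf2 differed by 0.13 ± 0.11 and 0.02 ± 0.11.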

How the data were processed

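RNA of 12 MEF cultures was hybridised to Affymetrix arrays. The deposited values are log2 probe set summaries. Per the submitters' processing notes the authors made them with Affymetrix Expression Console 1.1 and RMA, which removes background, equalises arrays and summarises the probes of a set. Of 45141 probe sets, 104 controls, 551 with several gene symbols and 15588 with none were left out, which left 28898; symbols of 28689 were updated and of 209 kept as listed. Scanned intensities were not used here. Precision is limited by the number of arrays.

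Every probe set was fitted in limma 3.58.1 (R 4.3.3) with lmFit and eBayes over all 12 arrays with 1 mean per group, for 5 contrasts: DP in each genotype, genotype in each treatment, and how far the DP effect differed between genotypes. P-values were adjusted by Benjamini-Hochberg over all 28898 probe sets and called under 0.05, and ± after a change is limma's SE. The fit was tested on simulated data. Tables and figures used Python 3.11.15, pandas 2.3.3, numpy 2.4.6 and matplotlib 3.10.9. Promoter windows are from RefSeq (GRCm38.p6).

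Named were every CITED probe set, up to 4 genes of largest change per list among those called in a contrast, a fixed set (Hif1a, Epas1, Crebbp, Xist) and the 3 genes most like each CITED probe set; a listed gene stood by its probe set of highest mean. Genes of a list that passed in no comparison are named as such, and some that the rule selects are given as counts. Lists are described by counts and medians. The members and lists were chosen with earlier results of these data known. The MEF line pairs DP with ethanol arrays, per the labels, where the same numbered MEF was given both treatments. The deviations of these pairs correlated at 0.41, 0.03 and 0.33 in wild-type lines 3, 4 and 5 and at 0.04, 0.30 and 0.31 in dKO lines 1, 5 and 6, over 13345 probe sets with a mean of at least 5. Alternatives were a block for the line (random for genotype, otherwise fixed), cyclic loess, median centring, array weights, robust eBayes, an intensity trend, no probe sets of the dimmest 40%, 1 probe set or the mean per gene, the compared arrays alone, leaving out each array or the 2 deviating arrays, and the beta-actin difference as a covariate.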

Additional observations from a re-analysis of the deposited data

Results flagged for a closer look

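The test of the difference between the DP effects of the genotypes passed for 2 genes of the lists, beside 0.401% of all probe sets called. Over all probe sets 8 of these calls were higher and 108 lower in dKO. Vhl responded less in dKO, by a difference of -1.07 ± 0.16 (adjusted p = 0.00949), as it rose by 1.78 ± 0.11 in wild-type and 0.71 ± 0.11 in dKO cells, where the rise did not pass with the beta-actin covariate (0.74, adjusted p = 0.222). Its means in wild-type and dKO cells were 7.75 and 8.53 in ethanol and 9.53 and 9.23 in DP. The genotypes differed by -0.30 under DP (adjusted p = 0.0658) and by 0.77 in ethanol (adjusted p = 0.000209). The smaller rise of Vhl in dKO thus went with a higher ethanol level. The other Vhl probe set, 1421071_PM_at, gave a difference between DP effects of -0.87 ± 0.23, which did not pass (adjusted p = 0.25). It was lower in dKO under DP by -0.47 (adjusted p = 0.0394). Bnip3, which encodes a mitophagy receptor, responded more in dKO, by 1.08 ± 0.16 (adjusted p = 0.00735, or 0.0504 once a replicate block held the line), as it rose by 1.53 ± 0.11 in wild-type and 2.61 ± 0.11 in dKO cells. Its means under DP were close, at 11.67 in wild-type and 11.72 in dKO cells. In ethanol they were 10.14 and 9.11, so the larger change in dKO went with a lower ethanol level.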

How the results depend on the processing

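Of 225 values of the 20 CITED results under the alternatives other than leaving out 1 array, 203 kept direction and side of the threshold. The Cited2 difference between genotypes under DP on 1452207_PM_at passed in all of them except with the beta-actin covariate (0.35), and on leaving out each array it passed 12 times, at 0.51 to 0.79 with adjusted p-values from 0.0038 to 0.0394. On 1421267_PM_a_at the same difference passed with the MEF line as a replicate block (0.51), without the dimmest 40% of probe sets (0.51), with only the arrays compared (0.51), without the 2 deviating arrays (0.51) and with array weights (0.48), and without the ethanol array of dKO line 1 or 5 or the DP array of dKO line 5 (0.36 to 0.69 over all arrays left out). In ethanol 1452207_PM_at passed with array weights (0.52) and without dKO line 5 (0.32 to 0.56). Cited1 passed with DP in wild-type cells with array weights (0.38) and without the 2 deviating arrays (0.40; 0.31 to 0.42 over single arrays), and between genotypes under DP with array weights (-0.28), with only the arrays compared (-0.30) and without the 2 deviating arrays (-0.30; -0.34 to -0.23 over single arrays). Signs turned only among values that did not pass. Cited1 between genotypes in ethanol was -0.12 with array weights, -0.0003 with cyclic loess, -0.0179 with median centring and -0.13 without the 2 deviating arrays. Cited2 on 1421267_PM_a_at gave -0.0197 (median centring) and -0.16 (beta-actin covariate) with DP in wild-type cells, and -0.0546 (cyclic loess), -0.0048 (without the 2 deviating arrays) and -0.19 (beta-actin covariate) between genotypes in ethanol, and 1452207_PM_at gave -0.0182 (beta-actin covariate) with DP in wild-type cells. Leaving out single arrays gave -0.0264 to 0.23 for Cited1 with DP in dKO and -0.15 to 0.10 between genotypes in ethanol, -0.0212 to 0.0967 for 1421267_PM_a_at with DP in wild-type cells, and for Cited4 -0.14 to 0.0933 and -0.0587 to 0.0188 with DP in wild-type and dKO cells, -0.0354 to 0.20 between genotypes in ethanol and -0.12 to 0.11 for the difference of DP effects. The causes were not tested. The replicate block changed no other call of a CITED probe set.

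Over all probe sets, calls in the order of DP in wild type, DP in dKO, genotype in ethanol, genotype under DP and difference numbered 1071, 330, 8557, 9227 and 116. They numbered 1650, 3892, 14009, 12043 and 479 with array weights and 469, 117, 1385, 1268 and 105 with the beta-actin covariate. With only the arrays compared DP in dKO gave 189, and the genotype comparisons gave 5740 and 6057 with 1 probe set per gene and 5645 and 5919 with the mean per gene, where 17097 were tested. DP in wild type gave 702 and 706 without the DP arrays of wild-type lines 4 and 5, and DP in dKO 217 without that of dKO line 6. The genotype calls split into 4919 higher and 3638 lower in ethanol and 4815 and 4412 under DP, and with cyclic loess into 3717 and 4401, and 3991 and 4971. No scaling moved the median of all probe sets by over 0.1. Signal over background limits Cited1 and Cited4.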
